A study of Mus musculus with 15 samples.

Results

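The comparison described here is between irradiated, vesicle-treated submandibular glands collected at day 30 (IR_iEV_30d, 3 libraries) and at day 4 (IR_iEV_4d, 3 libraries), 6 of the 15 libraries of the series. The members were chosen by the sample labels alone, and no measured value entered the choice. All 5 groups are wildtype male C57BL/6 mice of 8 to 10 weeks with 3 libraries each. Both groups compared had received 15 Gy at the gland region and then iEVs, injected into the gland every week starting on day 1. The labels do not spell out iEV; the title of the series names extracellular vesicles of mesenchymal stem cells. Nontreated glands (NT) and glands irradiated without iEVs at the same days (IR_4d and IR_30d) are the other 3 groups. The labels name no vehicle injection and no unirradiated group with iEVs, and the collection day of NT is not stated. Day 30 glands had been irradiated longer ago, came from older animals and had received more weekly injections than day 4 glands, and these cannot be told apart. The labels do not say whether each library came from its own mouse, so the p-values rest on the spread among these samples, part of which may be technical.

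The submandibular gland makes saliva in acinar cells and modifies it in ducts, and in male mice its granular convoluted ducts secrete kallikreins and growth factors. Ionizing radiation breaks DNA and activates the transcription factor p53, which switches on genes for cell cycle arrest, apoptosis and repair. MHC class II molecules present antigen to T cells on the surface of macrophages, dendritic cells and B cells, and interferon raises both class I and class II genes. Fibroblasts make the collagens and elastic fibres that hold the gland together.

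Total counts of the 6 libraries ran from 30564255 to 41127394, and the 10 most counted genes took 40.45 to 50.38% of them. Changes are log2 ratios of day 30 over day 4 with a standard error (SE), and levels are CPM, the usual depth-normalised gene count, scaled to effective library size, given as mean ± SD (n = 3) or per library in the order of replicates 1, 2 and 3. In bulk tissue, fewer cells of a type and less RNA per cell cannot be told apart. Products of the labelled tissue were abundant: the kallikrein Klk1b26 stood at 17720 CPM on average at day 4 and the acinar water channel Aqp5 at 320 CPM.

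Markers of tissues that lie beside the gland differed between the libraries. The mean log2 CPM of 14 adipose markers was between 1.57 and 4.73 at day 4 and between -1.48 and 0.51 at day 30, without overlap. Parotid secretory products stood at 7.60 to 9.07 at day 4 and at 2.68 to 7.50 at day 30. Sublingual products at day 4 stood at 1.61, 5.77 and 6.42 in replicates 1 to 3. At day 30 they stood at -0.05, 6.08 and 0.11, so that 1 library of that day and a pair of day 4 were sublingual-rich. Blood cell markers ran from 2.49 to 3.61 at day 4 and from 0.14 to 2.26 at day 30. For adipose, parotid and blood lists the exact two-sided permutation p was 0.1, the smallest that 3 against 3 allows. No member of the sublingual, parotid, blood or muscle lists passed the test, while 2 of 14 adipose markers fell, the hormone Lep and the adipogenesis gene Adig. The gene groups below were therefore also tested after adjustment for the sublingual and adipose levels (both as covariates in the fit), and with the sublingual-rich libraries left out, which leaves IR_iEV_4d replicate 1 alone against IR_iEV_30d replicates 1 and 3. The parotid level was not among the covariates. Skeletal muscle markers set 1 library apart: their mean log2 CPM was 1.95 in IR_iEV_4d replicate 2 and -1.79 and -1.16 in the other replicates of that group.

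**Figure D1:**
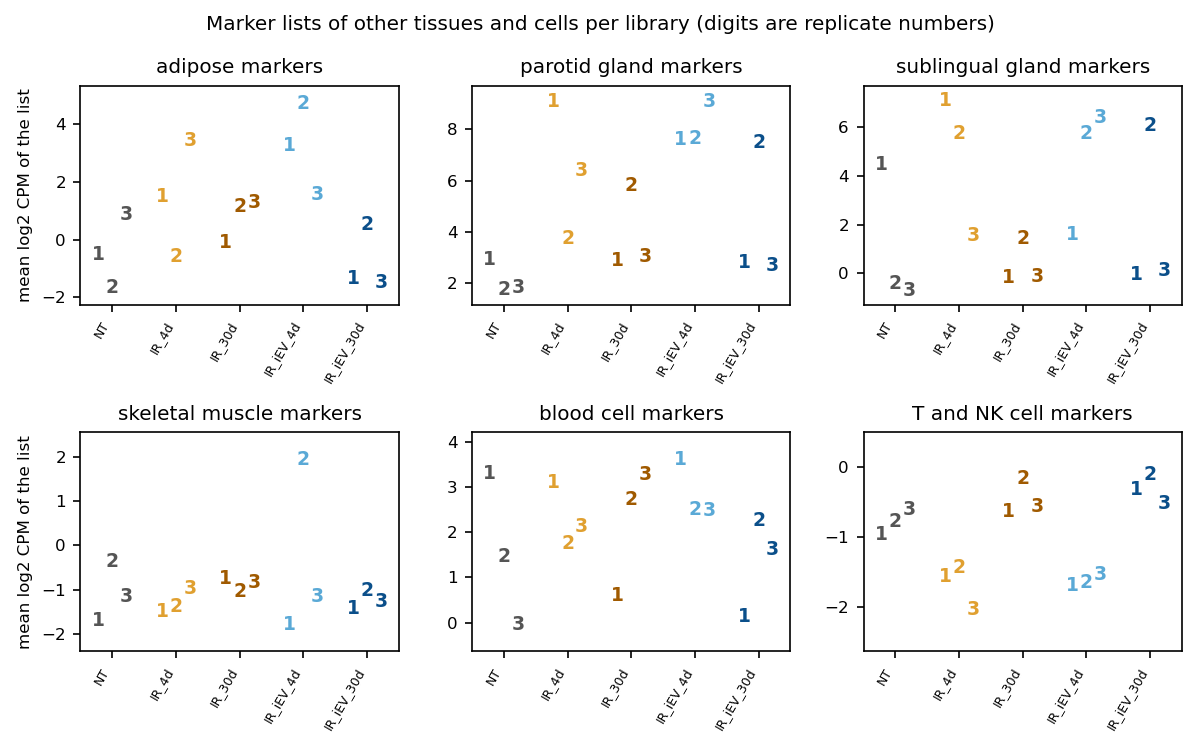
Mean log2 CPM of 6 marker lists (vertical axis) in every library, grouped by condition, with digits giving the replicate number. Adipose, parotid and blood markers of IR_iEV_4d lie above those of IR_iEV_30d without overlap, while T and NK cell markers lie below them.

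Across the transcriptome, 1327 of 16042 tested genes (8.27%) differed between day 30 and day 4 in vesicle-treated glands. Of these 693 rose (4.32%) and 634 fell (3.95%), and 284 changed at least 2-fold. In 4178 genes (26.0%) the 2 groups did not overlap in CPM, and the median change of all genes was -0.01. The count fell to 710 without IR_iEV_4d replicate 1 and to 850 without IR_iEV_30d replicate 3. It was 32 after adjustment for sublingual and adipose levels, all among the 1327, and 267 without the sublingual-rich libraries, 204 of them among the 1327.

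Antigen presentation, T and NK cells, ErbB and hedgehog signalling and products of the granular ducts were the groups with the larger shares of rises among lists of more than 9 tested members. Extracellular matrix, p53 targets and secretory protein folding were those with the larger shares of falls among lists of more than 4 tested members. The gene groups are described in turn below, with the share of each group beside that of all genes in the plot of calls per gene list.

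**Figure D2:**
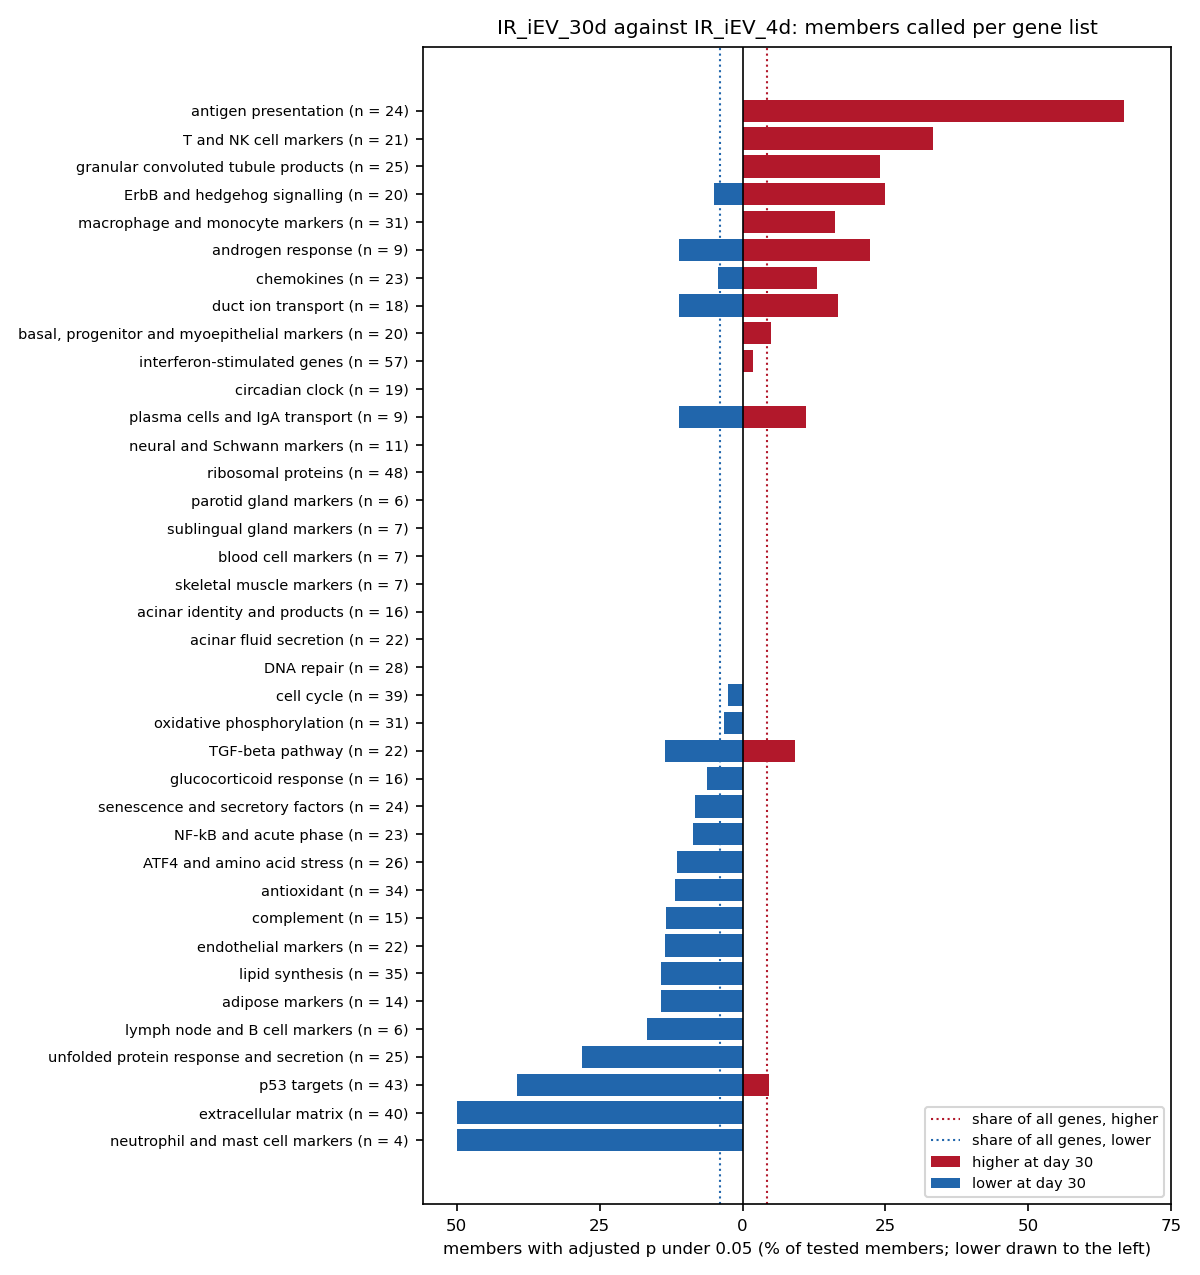
Share of tested members per gene list with an adjusted p under 0.05 (horizontal axis, percent), higher at day 30 to the right and lower to the left, with the number of tested members in brackets. Dotted lines mark the shares of all genes, 4.32% higher and 3.95% lower; antigen presentation reaches 16 of 24 members to the right and extracellular matrix 20 of 40 to the left.

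p53 target genes fell from day 4 to day 30 but stayed above nontreated glands. Of 43 tested targets 17 fell, 2 rose and 24 missed the threshold (median log2 change -0.45). In all 17 that fell, the day 30 mean was still higher than the NT mean. The summed level of the list, as mean log2 CPM, was 3.95 to 4.03 at day 4, 3.49 to 3.69 at day 30 and 2.54 to 2.61 in NT; no test against NT was made here.

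Aen, a nuclease that enhances apoptosis, was at 53.1, 55.2 and 52.9 CPM at day 4 and at 23.6, 22.4 and 21.6 CPM at day 30. The 2 groups were far apart and each was tight, while NT stood at 9.66, 11.5 and 10.9 CPM. The log2 change was -1.26 ± 0.089 (adjusted p = 9.92e-07). Cdkn1a, an inhibitor of cyclin-dependent kinases that enforces arrest, was at 74.3, 86.0 and 70.9 CPM at day 4 and at 35.4, 34.0 and 30.6 CPM at day 30. Every day 30 library lay below every day 4 library, yet far above the 1.76 to 3.03 CPM of NT. Cdkn1a fell by 1.21 ± 0.21 on the log2 scale (adjusted p = 0.00513). Phlda3, which restrains Akt signalling, stood at 69.5 ± 6.83 CPM at day 4 and 36.7 ± 1.70 CPM at day 30 (log2 change -0.92 ± 0.12, adjusted p = 0.000491).

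Most changed genes of arrest, death and repair fell, and 2 rose. Among 9 targets that act in apoptosis 3 fell, including the mitochondrial pore protein Bax (24.7 ± 0.948 to 16.1 ± 1.03 CPM, log2 change -0.61 ± 0.10, adjusted p = 0.00243). Among 13 targets of arrest and feedback 5 fell, among them the cyclin Ccng1 (398 ± 74.0 to 211 ± 46.1 CPM, -0.91 ± 0.14, adjusted p = 0.00163). Gtse1, a microtubule-associated protein of the G2 and S phases, went from 6.94 ± 0.626 to 2.59 ± 0.517 CPM (-1.43 ± 0.22, adjusted p = 0.00121). Of the 21 remaining targets 9 fell, such as the TNF receptor family member Eda2r (33.2 ± 4.29 to 18.1 ± 2.61 CPM, -0.88 ± 0.14, adjusted p = 0.00153) and Ddias, which protects damaged cells from death (-1.61 ± 0.34, adjusted p = 0.00834). Mdm2, the ligase that degrades p53, was at 51.9 ± 8.13 CPM at day 4 and 43.0 ± 4.68 CPM at day 30, with overlapping libraries (adjusted p = 0.122). The 2 targets that rose were Xpc, a sensor of damaged DNA (18.8 ± 0.678 to 27.4 ± 0.787 CPM, 0.54 ± 0.13, adjusted p = 0.016), and the stress sensor Sesn1 (0.47 ± 0.13, adjusted p = 0.0369).

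Of the 19 changed p53 targets 13 held their call when any 1 of the 6 libraries was left out, including each one named above except Sesn1, which lost it without any of the 3 day 4 libraries and without IR_iEV_30d replicates 1 and 2. Aen alone was called after adjustment for sublingual and adipose levels (adjusted p = 0.0011), where the other 18 lost their call. Without the sublingual-rich libraries 5 of the 19 kept it (Aen, Phlda3, Eda2r, Ccng1 and Zmat3).

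**Figure D3:**
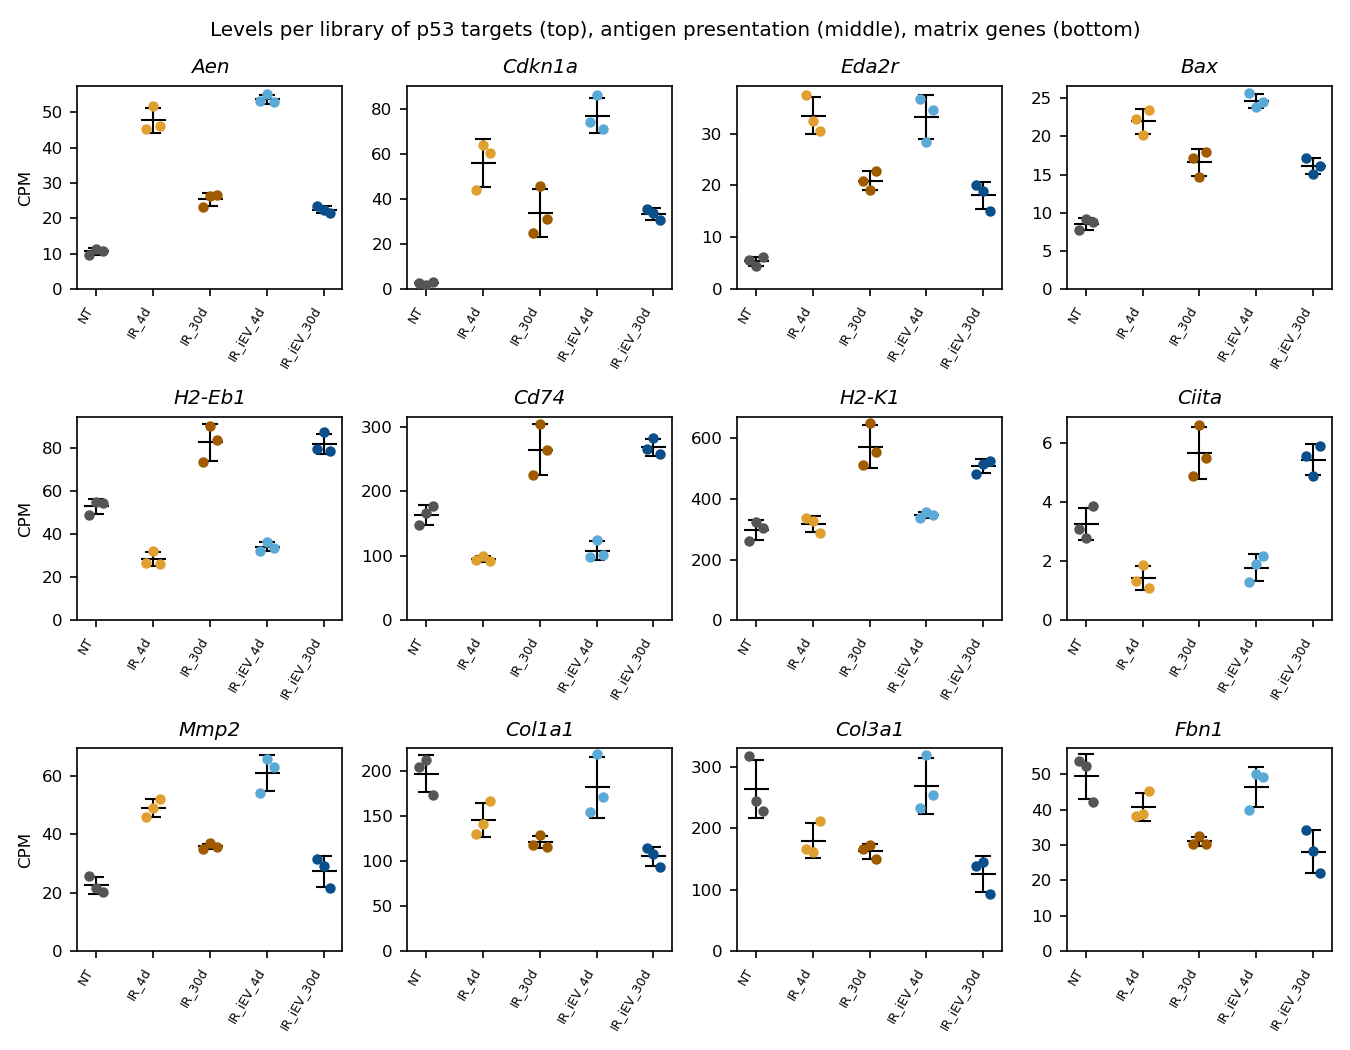
CPM of 12 genes (vertical axes, starting at 0) in the 3 libraries of each of the 5 groups; points are libraries, and black bars give the mean and SD. In IR_iEV_30d the p53 targets of the top row lie between NT and IR_iEV_4d, the class II genes H2-Eb1, Cd74 and Ciita lie above both, and Col1a1, Col3a1 and Fbn1 lie below both.

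Genes of antigen presentation rose as a group. Of 24 tested members 16 rose, none fell and 8 missed the threshold (median 0.57). All 7 class II genes rose, with a median of 1.23, and all 7 stood below the NT mean at day 4 and above it at day 30. Of 17 class I and immunoproteasome genes 9 rose, with a median of 0.36, and only 1 of these 9 was below the NT mean at day 4.

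H2-Eb1, a beta chain of class II molecules, was at 32.3, 36.2 and 33.6 CPM at day 4 and at 79.4, 87.1 and 78.4 CPM at day 30. NT lay between the 2 groups at 48.9, 55.0 and 54.5 CPM, and no libraries of the 3 groups overlapped. The log2 change was 1.26 ± 0.098 (adjusted p = 2.04e-06). Cd74, the chaperone that fills the class II groove until antigen is loaded, was at 98.4, 124 and 101 CPM at day 4 and at 265, 282 and 257 CPM at day 30. The day 30 libraries were all above the 147 to 177 CPM of NT, and the day 4 libraries all below it. Cd74 rose by 1.31 ± 0.11 (adjusted p = 8.75e-06). The other chains H2-Ab1 (40.3 ± 1.55 to 92.3 ± 9.76 CPM) and H2-Aa (39.2 ± 2.53 to 91.9 ± 8.12 CPM) rose by 1.19 ± 0.11 and 1.23 ± 0.11 (adjusted p = 1.16e-05 and 1.29e-05). Ciita, the coactivator that class II genes depend on, was at 1.28, 1.90 and 2.17 CPM at day 4 and at 5.54, 4.87 and 5.89 CPM at day 30 (1.60 ± 0.23, adjusted p = 0.000944). The peptide loader H2-DMb1 rose by 1.16 ± 0.17 (adjusted p = 0.000933) and its partner H2-DMa by 0.73 ± 0.18 (adjusted p = 0.0202).

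Class I genes rose less far. H2-K1, a class I heavy chain, was at 336, 357 and 347 CPM at day 4 and at 480, 515 and 524 CPM at day 30. The groups did not overlap, and the log2 change was 0.55 ± 0.10 (adjusted p = 0.0048). B2m, the light chain shared by class I molecules, went from 189 ± 5.67 to 284 ± 16.4 CPM (0.59 ± 0.11, adjusted p = 0.00536). The class I coactivator Nlrc5 (0.84 ± 0.21, adjusted p = 0.0223), the immunoproteasome subunit Psmb8 (0.69 ± 0.17, adjusted p = 0.0177) and the peptide transporter Tap1 (0.36 ± 0.11, adjusted p = 0.0491) rose as well. Class I heavy chain genes are close paralogs, so the division of reads among them is uncertain.

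Of these 16 genes 11 held their call with any 1 of the 6 libraries left out. H2-DMa lost it without IR_iEV_4d replicate 1 or IR_iEV_30d replicate 2, and Nlrc5, Psmb8 and Tap1 without IR_iEV_4d replicates 1 or 2 among others. After adjustment for sublingual and adipose levels 5 were called (H2-Eb1, Cd74, H2-Ab1, H2-Aa and H2-DMb1), and 10 without the sublingual-rich libraries.

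Promoter sequence of class II genes is shown because their members moved together: the Y box, a CCAAT element, is a known part of the class II promoter. RefSeq promoters (build GRCm38.p6, matched by symbol) were searched over the 250 bases before the gene start for CCAAT on both strands (ATTGG on the other). The 160 bases before the start are printed 5′ to 3′ on the gene's strand, with matches in capitals. Matches began 59 and 35 bases before the start of H2-Eb1 (chr17:34305707-34305866, plus strand), 48 bases before that of H2-Aa (chr17:34287824-34287983, minus strand) and 61 bases before that of H2-DMb1 (chr17:34153031-34153190, plus strand).
H2-Eb1: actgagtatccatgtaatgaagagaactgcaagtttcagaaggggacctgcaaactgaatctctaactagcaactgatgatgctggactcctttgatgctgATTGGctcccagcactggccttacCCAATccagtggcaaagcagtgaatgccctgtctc
H2-Aa: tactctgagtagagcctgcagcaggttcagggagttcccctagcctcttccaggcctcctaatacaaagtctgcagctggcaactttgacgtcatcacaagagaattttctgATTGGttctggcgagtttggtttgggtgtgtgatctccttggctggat
H2-DMb1: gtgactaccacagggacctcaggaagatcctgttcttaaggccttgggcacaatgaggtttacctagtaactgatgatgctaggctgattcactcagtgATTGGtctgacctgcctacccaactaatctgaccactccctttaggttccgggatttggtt
The same 5 letters occurred in 33.85% of 32851 RefSeq promoters, so a match is a description and not a site. H2-DMa had 2 promoter entries, 1 with a match 198 bases before the start and 1 with none; H2-Ab1 and Ciita were not searched.

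Several T and NK cell markers and fewer macrophage markers rose to day 30. Of 28 T and NK cell markers 21 could be tested, of which 7 rose (median of the list 1.52) while 14 missed the threshold. Of the 21 markers 14 did not overlap between the groups, all higher at day 30, where 26.0% of all genes did not overlap in either direction. The mean log2 CPM of this list was -1.69 to -1.52 at day 4, -0.52 to -0.10 at day 30 and -0.96 to -0.60 in NT. Il2rb, the interleukin receptor chain of NK cells and activated T cells, was at 2.10, 2.17 and 3.73 CPM at day 4 and at 6.11, 5.57 and 5.26 CPM at day 30. The groups did not overlap (1.08 ± 0.23, adjusted p = 0.00866). Ccl5, a chemokine of T and NK cells, was at 0.295, 0.362 and 0.122 CPM at day 4 and at 1.19, 1.15 and 1.18 CPM at day 30 (2.17 ± 0.45, adjusted p = 0.00803). The adhesion receptor Cd2, Il7r, Ncr1 and Klrb1c were also among the 7. Between 3 and 5 of the 7 rises remained called with 1 library left out, Il2rb and Ccl5 among them each time. None was called with that adjustment and 1, Il2rb, without the sublingual-rich libraries.

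Of 31 macrophage and monocyte markers 5 rose, none fell and 26 missed the threshold (median 0.15). Ccr2, the receptor that recruits monocytes, was at 3.14, 2.35 and 4.04 CPM at day 4 and at 12.7, 9.48 and 6.37 CPM at day 30. NT lay between, at 5.24 to 7.07 CPM, and overlapped with day 30 (1.58 ± 0.24, adjusted p = 0.00124). The lysosomal protease Ctss, which cuts the class II chaperone, went from 21.1 ± 1.28 to 36.4 ± 5.79 CPM (0.78 ± 0.13, adjusted p = 0.00241). The NADPH oxidase subunit Cybb (0.78 ± 0.17, adjusted p = 0.0105), the phagocytic receptor Mertk (0.80 ± 0.17, adjusted p = 0.0118) and the adaptor Tyrobp (0.56 ± 0.15, adjusted p = 0.0337) rose too. Tyrobp lost its call without any 1 of the libraries except IR_iEV_30d replicate 2; Ctss alone was called with that adjustment, and none of the 5 without the sublingual-rich libraries. Of 4 tested neutrophil and mast cell markers, the mast cell proteases Mcpt4 and Tpsb2 fell, and neither held without IR_iEV_30d replicate 3 (adjusted p = 0.107 and 0.136). Among 23 chemokines Ccl5, Ccl6 and Ccl9 rose and the eosinophil attractant Ccl11 fell (adjusted p = 0.00436). Ccl6 and Ccl9, which passed at 0.0433 and 0.0473, each lost the call with any of 5 libraries left out and in both fits for neighbouring tissue. Ccl11 lost it with that adjustment (0.19) but not without the sublingual-rich libraries, and Mcpt4 and Tpsb2 in both.

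Retnla, a secreted product of alternatively activated macrophages, was among the 14 largest rises. It was at 1.28, 1.74 and 0.852 CPM at day 4 and at 6.08, 6.28 and 4.73 CPM at day 30. All day 30 libraries lay above the 2.14 to 3.59 CPM of NT and all day 4 libraries below (2.13 ± 0.29, adjusted p = 0.000544). Retnla kept its call with that adjustment, without the sublingual-rich libraries and with any 1 library left out.

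Many extracellular matrix genes fell, and most of those that fell ended below nontreated glands. Of 40 tested members 20 fell, none rose and 20 missed the threshold (median -0.47). Of 15 collagens 10 fell, and in all 10 the day 30 mean was below the NT mean, as it was in 19 of the 20 genes that fell. At day 4 the mean was above that of NT in only 10 of these 20, and in 4 of the 10 collagens. The matrix list as a whole was at a mean log2 CPM of 5.03 to 5.25 at day 4, 4.48 to 4.87 at day 30 and 5.13 to 5.21 in NT.

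Col1a1, a chain of the main fibrillar collagen, was at 154, 219 and 172 CPM at day 4 and at 114, 108 and 93.7 CPM at day 30. The day 30 libraries were below those of day 4 and below the 174 to 213 CPM of NT (-0.79 ± 0.13, adjusted p = 0.00178). Its partner chain Col1a2 fell from 197 ± 30.5 to 127 ± 10.6 CPM (-0.63 ± 0.10, adjusted p = 0.00194). Col3a1 was at 233, 319 and 254 CPM at day 4 and at 139, 145 and 92.7 CPM at day 30 (-1.10 ± 0.18, adjusted p = 0.00243). The elastic fibre genes Eln (20.7 ± 2.47 to 8.02 ± 1.60 CPM, -1.37 ± 0.22, adjusted p = 0.00241) and Fbn1 (46.5 ± 5.63 to 28.2 ± 6.03 CPM, -0.72 ± 0.14, adjusted p = 0.00533) fell together. Dermatopontin, Dpt, which binds collagen fibrils, had the largest change of the list (8.88 ± 1.07 to 2.20 ± 0.830 CPM, -2.02 ± 0.31, adjusted p = 0.00163). Col6a3, a chain of the collagen around cells, fell by 0.82 ± 0.13 on the log2 scale (adjusted p = 0.00163).

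Mmp2, a protease that degrades collagen, was the exception to the order against NT. It was at 54.2, 65.9 and 63.2 CPM at day 4 and at 31.6, 29.1 and 21.5 CPM at day 30, with NT at 25.8, 21.5 and 20.3 CPM. The day 4 libraries stood apart, and day 30 overlapped with NT (-1.16 ± 0.13, adjusted p = 6.55e-05). Of the 20 matrix genes 14 held their call with any 1 library left out, including all those named here. Mmp2 alone was called after adjustment for sublingual and adipose levels (adjusted p = 0.0465), and 5 genes fell without the sublingual-rich libraries (Dpt, Mmp2, Col3a1, Col5a1 and Col15a1). Adipose marker levels did not overlap between the groups, so that a covariate fit separates them from the day only in part.

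Endothelial markers had 3 of 22 members that fell, none that rose and a median of -0.37. The lymphatic receptor Lyve1 went from 5.54 ± 0.244 to 1.92 ± 1.03 CPM (-1.53 ± 0.28, adjusted p = 0.004) and the angiopoietin receptor Tek from 5.08 ± 0.756 to 2.63 ± 0.218 CPM (-0.96 ± 0.21, adjusted p = 0.0095). Kdr, a VEGF receptor, passed at 0.0414 and lost its call without any 1 of 5 libraries. None of the 3 was called in either of the fits for neighbouring tissue. In the TGF-beta pathway, 2 of 22 genes rose and 3 fell. The matricellular target Ccn4 fell from 2.94 ± 0.368 to 0.612 ± 0.389 CPM (-2.30 ± 0.38, adjusted p = 0.00216) and the ligand Bmp7 from 8.04 ± 0.526 to 4.78 ± 0.458 CPM (-0.75 ± 0.15, adjusted p = 0.0055). Neither was called after adjustment for sublingual and adipose levels (0.137 and 0.101), and Bmp7 not without the sublingual-rich libraries (0.248). Ccn2, a related matricellular target, was at 21.0, 28.0 and 22.8 CPM at day 4 and at 77.8, 67.5 and 81.7 CPM at day 30. The groups did not overlap, but NT ranged from 15.6 to 62.8 CPM, and the rise (1.66 ± 0.45, adjusted p = 0.0491) was not called with any 1 of the 6 libraries left out.

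Genes of fatty acid synthesis fell while those of cholesterol synthesis did not pass. Of 35 lipid synthesis genes 5 fell and none rose, with a median of -0.40; the 5 were among 16 fatty acid genes (median -0.96), and none of 19 cholesterol genes passed (median -0.30). Srebf1, the transcription factor of the pathway, was at 133, 167 and 128 CPM at day 4 and at 80.0, 85.8 and 78.8 CPM at day 30. Its groups did not overlap, and NT ranged from 64.5 to 99.7 CPM (-0.81 ± 0.14, adjusted p = 0.00292). The desaturase Scd2 was at 745, 763 and 720 CPM at day 4 and at 321, 335 and 322 CPM at day 30 (-1.19 ± 0.21, adjusted p = 0.00436). Fads2 (-0.99 ± 0.20, adjusted p = 0.00795), Acly (-0.93 ± 0.20, adjusted p = 0.0141) and Scd1 (-2.32 ± 0.60, adjusted p = 0.0411) followed. Scd1 ranged from 208 to 1205 CPM within day 4, highest in the library with the highest adipose level, IR_iEV_4d replicate 2. Srebf1, Scd2 and Acly (291, 340 and 213 CPM) were also highest in that library and lowest in replicate 3, which had the lowest adipose level of the group. Fads2 was not in that order (17.0, 19.1 and 20.6 CPM). Srebf1, Scd2 and Fads2 held with any 1 library left out. Acly lost its call without 3 of the libraries (adjusted p up to 0.0598, without IR_iEV_30d replicate 2) and Scd1 without 5. All 5 were called without the sublingual-rich libraries, and none after adjustment for sublingual and adipose levels.

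Genes of protein folding and export in the endoplasmic reticulum fell by small amounts. Of 25 members 7 fell, none rose and 18 missed the threshold (median -0.31). Without overlap 13 were lower and 2 higher at day 30, where 26.0% of all genes did not overlap in either direction. In all 7 the day 4 mean was above and the day 30 mean below that of NT. Edem1, which sends misfolded glycoproteins to degradation, was at 184, 184 and 193 CPM at day 4 and at 146, 145 and 115 CPM at day 30 (-0.47 ± 0.11, adjusted p = 0.0122). The secreted stress protein Manf went from 111 ± 4.87 to 85.3 ± 4.29 CPM (-0.38 ± 0.088, adjusted p = 0.0146). With 1 library left out, 2 to 4 of the list were called (2 without IR_iEV_4d replicate 3), with Edem1 among them each time, and none in either fit for neighbouring tissue. Of 26 ATF4 and amino acid stress genes 3 fell, the sestrin Sesn2 (adjusted p = 0.00409), Atf4 itself and Gpt2; the last 2 lost their call without IR_iEV_30d replicate 2, and all 3 lost it in both fits for neighbouring tissue.

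Products of the granular convoluted ducts rose in part. Of 25 members 6 rose, none fell and 19 missed the threshold (median 0.58). All 6 were kallikreins of the Klk1b cluster, near-identical paralogs among which the reads may be divided in error. Klk1b5 was at 2190, 1788 and 2368 CPM at day 4 and at 3107, 3500 and 3351 CPM at day 30. The groups did not overlap, and NT ran from 2032 to 3385 CPM (0.65 ± 0.15, adjusted p = 0.0131). Klk1b26 went from 17720 ± 4002 to 28100 ± 5173 CPM (0.67 ± 0.17, adjusted p = 0.0245). Klk1, the tissue kallikrein of other organs as well, was lower in every day 30 library than in any day 4 library. It did not pass (7749 ± 1468 and 4779 ± 1184 CPM, adjusted p = 0.103). The growth factor Egf of these ducts did not pass (26850 ± 8397 and 40040 ± 8288 CPM, adjusted p = 0.104). The count of 6 was 1 without IR_iEV_4d replicate 1 and 12 without IR_iEV_4d replicate 3, 9 without the sublingual-rich libraries (5 of the 6 among them) and 0 with that adjustment.

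Ion transport genes of the ducts changed in both directions. Foxi1, the transcription factor of ionocytes, was at 41.2, 35.9 and 38.1 CPM at day 4 and at 26.1, 17.9 and 24.4 CPM at day 30. Day 30 overlapped with the 23.04 to 31.3 CPM of NT (-0.75 ± 0.13, adjusted p = 0.00321). The monocarboxylate transporter Slc5a8 fell from 81.4 ± 11.2 to 59.6 ± 2.58 CPM (-0.45 ± 0.093, adjusted p = 0.00792). The sodium channel subunit Scnn1b (adjusted p = 0.0332) and the proton pump subunit Atp6v0d2 (adjusted p = 0.0476) rose. Both falls held with any 1 library left out, while neither of these rises was called without IR_iEV_4d replicate 1. After adjustment for sublingual and adipose levels Foxi1 lost its call (adjusted p = 0.0765) and Slc5a8 kept it (0.0465). Without the sublingual-rich libraries Foxi1 kept it (0.0283) and Slc5a8 lost it (0.086), and neither rise was called in those fits.

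Acinar genes did not pass. None of 22 fluid secretion genes (median 0.11) and none of 16 identity and product genes (median -0.22) was called. Of the 22, 6 were higher and 4 lower at day 30 without overlap, where 26.0% of all genes did not overlap in either direction. Of the 16, 14 had a negative change and 2 a positive one. Their mean log2 CPM was 7.93 to 8.20 at day 4 and 7.10 to 7.80 at day 30, without overlap. The exact permutation p was 0.1, the smallest possible, and NT was at 7.15 to 7.75. Aqp5 was at 316, 350 and 295 CPM at day 4 and at 259, 267 and 319 CPM at day 30. The 2 days overlapped, and NT, at 271 to 288 CPM, overlapped with day 30 and lay below every day 4 library (-0.19 ± 0.098, adjusted p = 0.262).

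Ligands and receptors of the ErbB and hedgehog pathways, which guide growth of salivary epithelium, included 5 of 20 genes that rose and 1 that fell (median 0.13). Erbb3, a neuregulin receptor, was at 84.3, 82.2 and 80.4 CPM at day 4 and at 128, 127 and 151 CPM at day 30. Day 4 lay below and day 30 above all NT libraries, at 102 to 122 CPM (0.72 ± 0.088, adjusted p = 0.000234). Ptch1, the hedgehog receptor and target, was at 16.1, 15.8 and 15.1 CPM at day 4 and at 23.04, 24.0 and 27.6 CPM at day 30 (0.67 ± 0.099, adjusted p = 0.00107). The hedgehog coreceptor Boc rose (0.46 ± 0.098, adjusted p = 0.0096) and the coreceptor Gas1 fell (45.3 ± 9.97 to 24.9 ± 1.00 CPM, -0.86 ± 0.16, adjusted p = 0.00561). Erbb2 and the ligand Hbegf passed at 0.0256 and 0.039 and were not called without IR_iEV_4d replicate 1. Erbb3, Ptch1, Boc and Gas1 held with any 1 library left out. None of the 6 was called with that adjustment (Erbb3 at 0.0705), and Erbb3 was without the sublingual-rich libraries.

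Several groups had few or no members past the test. DNA repair (28 genes), ribosomal proteins (48), the circadian clock (19) and neural markers (11) had none. Of 39 cell cycle genes 1 fell, the mitotic cyclin Ccnb1 (2.61 ± 0.719 to 1.02 ± 0.426 CPM, adjusted p = 0.04), a call lost without any 1 of 5 libraries. The proliferation marker Mki67 was at 14.01 ± 2.82 and 10.4 ± 3.97 CPM (adjusted p = 0.508). Of 34 antioxidant genes 4 fell and of 31 oxidative phosphorylation genes 1, the electron carrier Cycs. Of 24 senescence factors the IGF-binding proteins Igfbp4 (adjusted p = 0.000688) and Igfbp5 (0.0364) fell, the latter losing its call with any 1 library left out. Complement had 2 of 15 lower, NF-kB and acute phase 2 of 23 lower, glucocorticoid response 1 of 16 lower, and lymph node markers 1 of 6 lower. Most NF-kB and acute phase members had a positive change, 15 against 8 negative (median 0.22). So did most of the glucocorticoid list, 11 against 5 negative (median 0.45). The mean log2 CPM of the glucocorticoid list was 4.27 to 4.72 at day 4 and 4.88 to 4.965 at day 30. The androgen response had 2 of 9 higher and 1 lower, plasma cells 1 of 9 in each direction, and basal and myoepithelial markers 1 of 20 higher. None of the changed genes of these groups was called after adjustment for sublingual and adipose levels (Igfbp4 at 0.0896, Cycs at 0.298). Without the sublingual-rich libraries, where day 4 kept 1 library, the log2 change was -0.61 for Igfbp4 and -0.71 for Igfbp5, against -0.69 and -0.83 with all libraries.

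Among single genes, the largest rises and falls differed in how far they followed neighbouring tissue. Ptgds, a prostaglandin D synthase, had the largest rise (0.191 ± 0.0893 to 4.19 ± 2.23 CPM, 4.48 ± 1.07, adjusted p = 0.0266), and B4galnt2, a glycosyltransferase, rose by 2.01 ± 0.53 (adjusted p = 0.0337). Both lost their call without any 1 of 5 libraries, and both were lowest at day 30 in replicate 3. Pik3ip1, an inhibitor of phosphoinositide kinase signalling, was at 7.53, 6.24 and 5.58 CPM at day 4 and at 18.2, 18.8 and 33.3 CPM at day 30 (1.87 ± 0.28, adjusted p = 0.0019). The lymphocyte integrin Itgb7 was at 1.21, 1.04 and 0.755 CPM at day 4 and at 3.66, 3.68 and 3.43 CPM at day 30 (1.85 ± 0.27, adjusted p = 0.00101). Both held with any 1 library left out, and neither was called in the fits for neighbouring tissue.

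Among the largest falls were Adrb3, an adrenergic receptor of fat cells (-5.69 ± 1.35, adjusted p = 0.025), and the prostaglandin receptor Ptger3 (-4.29 ± 0.71, adjusted p = 0.00243). Adrb3 was at 3.18, 7.44 and 1.32 CPM at day 4, in the order of the adipose level, which was 3.27, 4.73 and 1.57 in replicates 1, 2 and 3. After adjustment for sublingual and adipose levels the changes were -1.67 for Adrb3 and -3.21 for Ptger3, neither of them called. Crabp1, which binds retinoic acid in the cytoplasm, did not follow that order, at 5.60, 7.12 and 6.31 CPM at day 4 and at 1.05, 0.801 and 1.47 CPM at day 30. The groups did not overlap, and NT was at 2.26 to 3.92 CPM (-2.50 ± 0.29, adjusted p = 0.000162; adjusted p = 0.0765 with that adjustment). Crabp1, Ptger3 and the potassium channel Kcnk3 held with any 1 library left out, and Adrb3 lost its call without any 1 of the 3 day 30 libraries (adjusted p up to 0.0913, without IR_iEV_30d replicate 3). At day 4 Ptger3 (2.685, 4.995 and 1.071 CPM) and Kcnk3 (6.48, 21.6 and 3.85 CPM) were also in the order of the adipose level. With that adjustment Kcnk3 changed by -1.53 and was not called (adjusted p = 0.463).

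**Figure D4:**
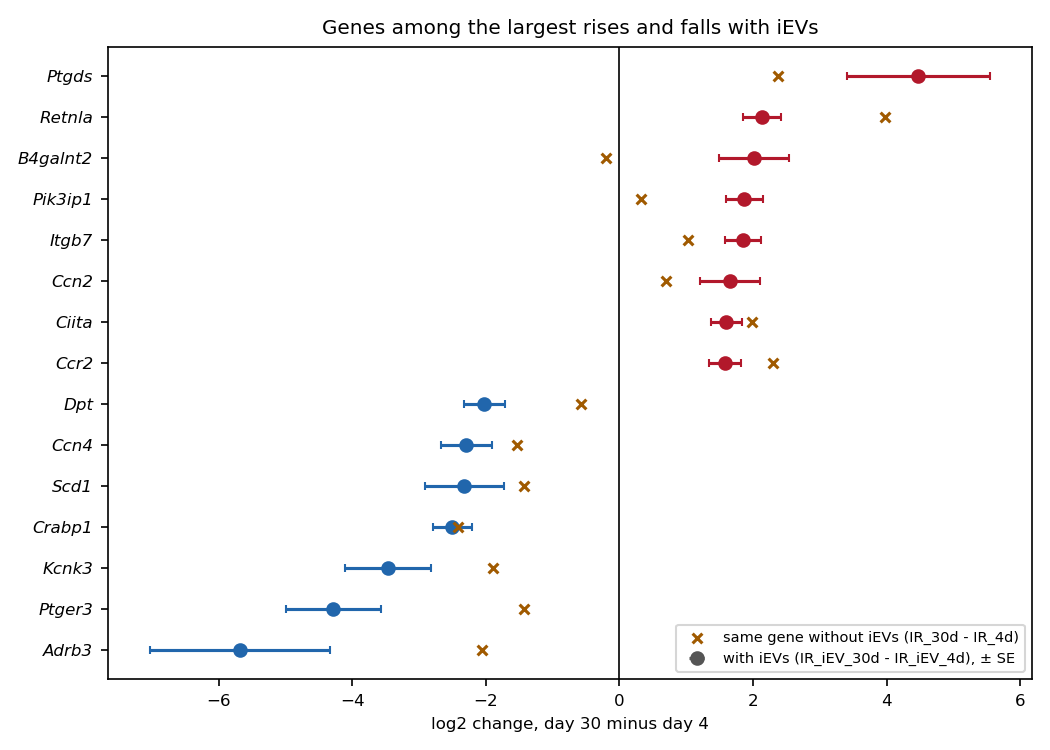
Log2 change from day 4 to day 30 (horizontal axis) of 8 of the 14 largest rises (red) and 7 of the 14 largest falls (blue) with iEVs, those the text describes, as points with SE; brown crosses give the change of the same gene without iEVs. Crabp1 has nearly the same change in both (-2.50 and -2.41), while B4galnt2 has 2.01 with iEVs and -0.20 without.

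The same day change was measured in glands irradiated without iEVs, from 6 other libraries. There 1092 of 16042 genes changed (6.81%), 772 higher and 320 lower. Of these genes 369 were called in both day changes, which is 27.81% of the genes called with iEVs and 33.79% of those called without, and 368 had the same direction. Class II genes rose in both, H2-Eb1 by 1.26 ± 0.098 with and 1.55 ± 0.099 without iEVs (adjusted p of the difference 0.552). Of the 19 p53 targets and 16 antigen presentation genes called with iEVs, 11 and 16 were also called without. Of the 20 matrix genes 2 were, with a median over the list of -0.10 without iEVs against -0.47 with them, and no matrix gene passed the test of the difference (Col3a1 adjusted p = 0.217, Mmp2 0.183).

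The direct test of the difference between the 2 day changes called 20 of 16042 genes (0.125%). All 20 had the lower value with iEVs, none the higher, while 1452 genes had an unadjusted p under 0.05 in either direction; DESeq2 called 119, of which 18.49% were higher with iEVs. The 20 included 10 of the 57 interferon-stimulated genes. With iEVs 1 member of that list rose, the ubiquitin ligase Dtx3l (0.51 ± 0.15, adjusted p = 0.0436, lost with any 1 library left out), and the median was 0.02. Without iEVs 49 rose and the median was 1.29. The mean log2 CPM of the list was 2.49 to 2.65 in IR_iEV_4d and 2.46 to 2.80 in IR_iEV_30d, 1.74 to 2.02 in IR_4d and 3.11 to 3.33 in IR_30d, and 2.24 to 2.63 in NT. So the vesicle-treated libraries of both days lay near the range of NT, while those without iEVs lay below it at day 4 and above it at day 30.

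Ifit3, a member of the interferon list, was at 7.86, 5.99 and 7.06 CPM in IR_iEV_4d and at 7.53, 7.02 and 4.93 CPM in IR_iEV_30d. Without iEVs it was at 2.57, 2.51 and 2.17 CPM at day 4 and at 13.1, 12.2 and 15.6 CPM at day 30. The days overlapped with iEVs and were far apart without, at a change of -0.10 ± 0.19 against 2.49 ± 0.21 (difference -2.60 ± 0.28, adjusted p = 0.000787). Oas2, a sensor of double-stranded RNA, changed by -0.22 ± 0.25 with and 2.42 ± 0.27 without iEVs (difference -2.64 ± 0.37, adjusted p = 0.00395). Ifit3 and Oas2 held this call under every alternative fit that was run, including those for neighbouring tissue. Rtp4 (difference -2.31 ± 0.29, adjusted p = 0.00149) and Irf7, the master factor of interferon production (-1.83 ± 0.27, adjusted p = 0.00893), held it with any 1 of the compared libraries left out but not without the sublingual-rich libraries, and Irf7 not with that adjustment either.

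Genes outside the interferon list differed in the same direction. Nfkb2, an NF-kB subunit, was at 36.6, 42.3 and 41.4 CPM in IR_iEV_4d and at 40.9, 39.5 and 39.8 CPM in IR_iEV_30d. Without iEVs it was at 40.1, 38.0 and 38.8 CPM at day 4 and at 84.9, 90.2 and 78.9 CPM at day 30, so that IR_30d alone stood apart (difference -1.12 ± 0.14, adjusted p = 0.00149). Complement factor Cfb (-1.82 ± 0.22, adjusted p = 0.00149) and the proteoglycan Sdc3 (-1.33 ± 0.17, adjusted p = 0.00149) differed as well. For both, IR_30d was the highest group, and every IR_iEV_4d library lay above every IR_4d and NT library (Cfb at 8.31 ± 0.798 CPM in IR_iEV_4d, 4.47 ± 0.0806 CPM in IR_4d and 4.24 ± 0.0831 CPM in NT). Hsd11b1, which regenerates active glucocorticoid, fell with iEVs (62.5 ± 8.78 to 43.7 ± 4.61 CPM, -0.52 ± 0.14) and rose without (0.99 ± 0.14), a difference of -1.51 ± 0.20 (adjusted p = 0.00401). These 4 genes held with any 1 library left out and with that adjustment, and lost the call without the sublingual-rich libraries. Of the 20 genes 3 were also called in the day change with iEVs, all lower at day 30: Hsd11b1, the metal importer Slc39a14 and Ccdc80, a secreted protein that binds matrix (15.4 ± 2.05 to 6.18 ± 1.02 CPM, -1.32 ± 0.17, adjusted p = 0.000336). The calls said above to hold are those of the difference. The fall of Hsd11b1 with iEVs itself (adjusted p = 0.039) did not hold with every single library left out. None of the 3 falls with iEVs was called with that adjustment. The count of 20 was 9 and 12 without IR_30d replicates 2 and 3, 7 with that adjustment, and 7 without the sublingual-rich libraries, of which 2 were among the 20 and 28.57% were higher with iEVs.

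**Figure D5:**
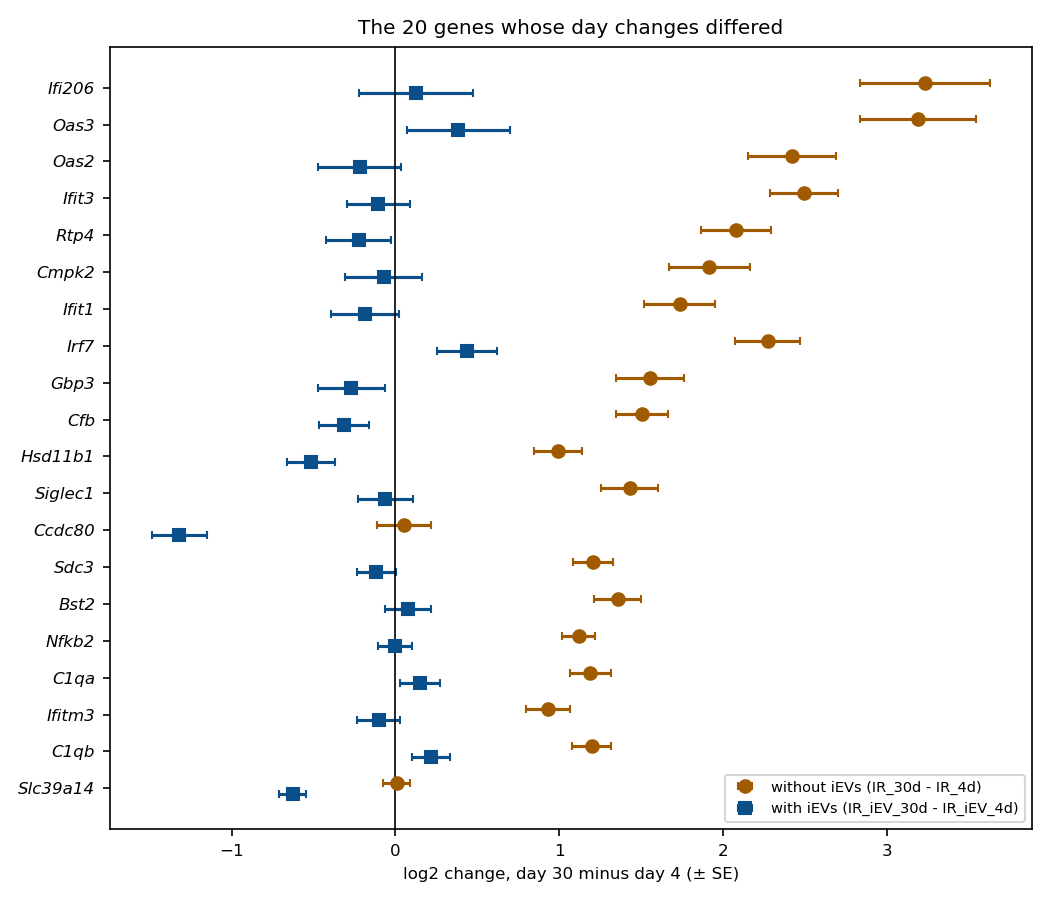
Log2 change from day 4 to day 30 with SE (horizontal axis) of the 20 genes whose day changes differed, with iEVs (blue squares) and without (brown circles). Ccdc80 and Slc39a14 lie near 0 without iEVs and below 0 with them; the others rise by 0.93 or more without iEVs, and with iEVs lie between -0.31 and 0.44 apart from Hsd11b1 at -0.52.

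For the interferon-stimulated genes Ifit3 and Ifit1 the promoter is shown because both differed and both hold a match to the core of the interferon-stimulated response element. The motif, GAAA then any 2 bases then GAAA, was searched on both strands (TTTC, 2 bases and TTTC on the other) in the same 250 bases, and the 160 bases before the start are printed with matches in capitals. Matches began 156 and 122 bases before the start of Ifit3 (chr19:34583369-34583528, plus strand) and 104 and 85 bases before that of Ifit1 (chr19:34640729-34640888, plus strand).
Ifit3: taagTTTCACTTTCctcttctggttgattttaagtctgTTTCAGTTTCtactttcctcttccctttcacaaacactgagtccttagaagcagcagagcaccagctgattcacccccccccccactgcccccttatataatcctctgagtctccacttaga
Ifit1: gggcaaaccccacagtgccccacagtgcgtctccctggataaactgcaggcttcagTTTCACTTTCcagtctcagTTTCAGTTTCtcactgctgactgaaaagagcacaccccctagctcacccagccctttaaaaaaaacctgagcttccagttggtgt
These letters occurred in 2.977% of 32851 RefSeq promoters. The windows of Irf7 and Cmpk2, which differed as well, did not hold them, and Rtp4 and Oas2 were not searched.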

How the data were processed

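RNA was extracted with TRIzol and sequenced as stranded libraries made with the NEXTFLEX Rapid Directional kit, per the labels. The deposited table holds the authors' raw read count per gene symbol and library, with 21013 symbols and totals of 29082798 to 52201098. The submitters' processing notes name TopHat, HTSeq, DESeq2 and GRCm39, without versions; strand setting and multi-mapping reads are not given in the sources used here. Promoters come from RefSeq on GRCm38.p6, another build than that of the counts.

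The test was edgeR's robust quasi-likelihood F test (version 4.0.16, R 4.3.3) after TMM scaling and filterByExpr (minimum count 10, minimum total 15), which kept 16042 genes. The 5 groups were fitted together, leaving 10 residual degrees of freedom. Adjusted p-values are Benjamini-Hochberg over all genes tested, with a threshold of 0.05. SE is the absolute log2 change divided by the square root of F. List levels are means of log2 CPM with prior count 2. Genes named were the 14 largest rises and 14 largest falls past the threshold without overlap and averaging 2 CPM or more in the higher group (without predicted genes, immune receptor segments, mitochondrial genes and neighbouring tissue markers), up to 4 members of each of 38 lists by lowest p, Cdkn1a, Aqp5 and Klk1, and the 5 lowest p of the difference in each direction; other members are named as examples chosen after their values were seen, and some genes that meet the rule are not reported here. The lists and the comparison were chosen with earlier results of these data known. In simulated data of this comparison with 16042 genes, 82% of 100 genes changed 2-fold and 38% of 100 changed 1.5-fold were recovered, with 7 false calls. The simulated counts varied independently from gene to gene, without differences in tissue content between libraries, and no gene of low level was among those changed. So these values do not cover shifts in tissue content or genes of low level. Alternatives were DESeq2 1.42.0, limma-voom (limma 3.58.1), DESeq2 size factors in edgeR, no low-count filter, the replicate number as a block, sublingual and adipose levels as covariates, leaving out libraries with a sublingual level above 2, a fit of the 6 libraries alone, and leaving out each library in turn.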

Additional observations from a re-analysis of the deposited data

Results flagged for a closer look

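The following genes were picked out because the change from day 4 to day 30 with iEVs differed from that without iEVs by the test of the difference itself (edgeR quasi-likelihood, Benjamini-Hochberg over all genes). Among interferon-stimulated genes, the log2 difference was -2.60 for Ifit3, -2.64 for Oas2, -2.31 for Rtp4, -1.83 for Irf7, -1.92 for Ifit1, -1.28 for Bst2, -1.82 for Gbp3, -2.80 for Oas3, -1.99 for Cmpk2 and -1.03 for Ifitm3. Ifi206, a further interferon-inducible gene, had -3.11. Among macrophage genes it was -1.04 for C1qa and -0.98 for C1qb, subunits of complement component C1q, and -1.49 for the lectin Siglec1. The remaining genes were Cfb (-1.82), Sdc3 (-1.33), Nfkb2 (-1.12), Hsd11b1 (-1.51), Ccdc80 (-1.37) and Slc39a14 (-0.64). Bst2, Gbp3, Siglec1, Oas3, Ifi206, C1qa, C1qb, Cmpk2, Ccdc80, Ifitm3 and Slc39a14 each lost the call without IR_30d replicate 2, and some of them without other libraries as well. In the opposite direction no gene passed with edgeR on all libraries, while 18.49% of the 119 genes called by DESeq2, 28.57% of the 7 called without the sublingual-rich libraries and up to 7.14% of those called with 1 library left out were higher with iEVs. The 5 with the lowest p were Agfg2, Neat1, Nup210, Etl4 and Shank2. Groups of 3 libraries were not examined for single outlying samples by a fixed criterion.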

How the results depend on the processing

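The count of 1327 genes changed from day 4 to day 30 with iEVs was 1935 with DESeq2, 1261 with limma-voom, 1309 with DESeq2 size factors, 1180 with no low-count filter, 506 in a fit of the 6 libraries alone, 32 after adjustment for sublingual and adipose levels and 267 without the sublingual-rich libraries; leaving out each library gave 710 to 1006. The count of 1092 without iEVs was 538 with that adjustment, 374 without the sublingual-rich libraries, and 536 to 718 with each library left out. The count of 20 for the difference was 119 with DESeq2, 7 with that adjustment, 7 without the sublingual-rich libraries, and 9 to 29 with each library left out. Unadjusted p-values under 0.05 with iEVs numbered 3883, 1964 with that adjustment and 2621 without the sublingual-rich libraries. With the replicate number as a replicate block the 3 counts were 1136, 956 and 20. Deviations of same-numbered libraries from their group means correlated at 0.179, -0.013 and -0.217 for replicates 1, 2 and 3 with iEVs. Over all groups 5 of 30 pairs exceeded 0.1. The labels do not say what the replicate numbers mark. Tissue content also enters these deviations, so they cannot decide whether samples were paired. Of 183 genes examined singly that were called with iEVs, 102 held with any 1 library left out and 17 held in every alternative. The direction was kept in all 183 without the sublingual-rich libraries and in 182 with that adjustment; the exception was the antioxidant enzyme Sod3, at 0.073 with that adjustment. The causes of these shifts were not tested. The 183 were named genes, called list members and genes picked after the values had been seen. Their counts do not stand for all 1327, of which 32 were called with that adjustment. Where a group kept 1 library, that library was assumed to vary like the others. Depth limits genes of low level, such as the T and NK cell markers, of which 21 of 28 could be tested.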

Other observations

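A set of 30 ribosome biogenesis genes was written down after the values had been seen, so its counts are a description with no test of the set. From day 4 to day 30 with iEVs 9 of the 30 fell, none rose and 26 had a negative change, with a median of -0.30. Without iEVs 2 fell and none rose, with a median of -0.20. Over all genes 3.95% fell with iEVs and 1.99% without, and 8207 of 16042 had a negative change with iEVs. Heatr1, a small subunit processing factor, went from 28.6 to 15.6 CPM (log2 change -0.88 ± 0.12, edgeR adjusted p = 0.000564), and Nolc1, a nucleolar chaperone, from 43.5 to 23.4 CPM (-0.90 ± 0.14, adjusted p = 0.00178). The processing factor Tsr1 (-0.70 ± 0.11, adjusted p = 0.00163) and the nucleolar protein Gnl3 (-0.79 ± 0.17, adjusted p = 0.00797) fell as well. These 4 calls held with any 1 library left out, and those of Heatr1, Nolc1 and Gnl3 after adjustment for sublingual and adipose levels. Pprc1, a coactivator of mitochondrial gene expression, fell from 46.0 to 24.3 CPM (-0.92 ± 0.11, adjusted p = 0.000189). The ribosomal proteins themselves had no call among 48 genes and a median of 0.09.

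Other genes picked for their low p after the values had been seen were Bmf, an inducer of apoptosis that rose from 7.77 to 19.3 CPM (1.31 ± 0.13, adjusted p = 4.25e-05), and Zfyve1, a protein of autophagy membranes, from 27.6 to 54.1 CPM (0.97 ± 0.091, adjusted p = 1.29e-05). The nuclear import receptor Kpna2 fell from 22.5 to 10.4 CPM (-1.11 ± 0.12, adjusted p = 6.05e-05). Bmf, Zfyve1, Kpna2 and Pprc1 were called with any 1 library left out, with that adjustment and without the sublingual-rich libraries. Bmf, Zfyve1 and Kpna2 also changed in the same direction without iEVs (0.65, 0.49 and -0.50). Ear2, a ribonuclease of eosinophils and macrophages, rose from 0.198 to 1.60 CPM with iEVs (2.98 ± 0.48, adjusted p = 0.00184), and its change without iEVs was 4.12.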
